A study of Mus musculus with 11 samples.

Results

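The subject is a set of 10 mouse genes through which thymocytes sense the signals that guide them through the thymus. They are the chemokine receptors Ccr9, Cxcr4 and Ccr7, the sphingosine-1-phosphate (S1P) receptors S1pr1, S1pr3 and S1pr4, the somatostatin receptor Sstr2, and the G protein subunits Gng2, Gnai2 and Gna13. They were taken by name as G protein-coupled receptors of thymocyte migration and their signalling subunits, and 3 of them, S1pr3, Sstr2 and Gng2, were picked because their RNA was lower in Arpp21-deficient DN3 thymocytes. The comparison of genotypes in DN3 thymocytes is therefore a description for those 3 genes and a test for the other 7. The set holds 10 of the 35896 genes in the count tables, and all 10 were among the 13749 genes with enough counts to be tested.

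RNA was sequenced from DN2 and DN3 thymocytes, sorted from mice on a C57BL/6 background that were wild type (WT) or Arpp21 KO (Arpp21-/-). DN2 and DN3 are successive CD4- CD8- stages, and CD44 is lost between them. There were 3 DN2 WT, 2 DN2 KO, 3 DN3 WT and 3 DN3 KO libraries, and the labels name no treatment. The KO is a mouse line in which exon 5 of Arpp21 was removed in the germline with a pair of guide RNAs, which shifts the reading frame of the long isoform and leaves the short isoform and the intronic miR-128-2 in place, so that every cell of the animal carries the deletion. Ages were not given for these libraries, and no source used here says that each library came from a separate animal, so the p-values measure the spread between libraries only.

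Chemokine and S1P receptors pass their signal through heterotrimeric G proteins. An alpha subunit of the Gi class (Gnai2) or the G12/13 class (Gna13) and a beta-gamma pair (with Gng2 as one of the gamma subunits) then act on the enzymes and small GTPases that move the cell. In the thymus, CCR9 and CCR7 guide progenitors into the organ, CXCR4 holds immature thymocytes near cortical stroma and takes part in beta selection, and S1PR1 carries mature T cells out into the blood. ARPP21 is an RNA-binding protein that prefers uridine-rich 3′ untranslated regions.

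The libraries held 14531762 to 63109504 estimated counts (median 21501831), so that 3 counts, the smallest amount read as detected, corresponded to 0.0802 to 0.242 CPM (counts scaled to library size). Intervals and floors of this kind cover counting error only. Stage labels matched Ptcra and Cd44, given in TPM (abundance corrected for transcript length and depth). Ptcra, the pre-T cell receptor alpha chain, stood at 2.23 ± 1.38 TPM (SD, n = 3) in DN2 WT and 516 ± 42.8 in DN3 WT. Cd44 stood at 35.8 ± 7.94 and 3.27 ± 0.815. All 9 listed DN3 markers had higher fitted values in DN3 WT than in DN2 WT. Of 8 listed DN2 markers, 3 had lower and 5 had higher fitted values in DN3 WT. The DN2 list summed to 2440 to 3180 CPM in DN2 WT and 2760 to 3320 CPM in DN3 WT, so as a whole it did not separate the stages. Arpp21 as a whole gene is a weak check of the genotype because only 1 exon is missing. It stood at 280 ± 31.5 TPM in DN3 WT and 191 ± 110 in DN3 KO, with overlapping libraries. The transcript Arpp21-229, picked after its values were seen, held 1987 to 2439 estimated counts in each DN3 WT library and 0 to 359.6 in each DN3 KO library, and 411 to 1328 in DN2 WT against 0 and 100 in DN2 KO. A pair of libraries stood apart, DN2 KO replicate 2 and DN3 KO replicate 3. In them, genes with short transcripts were raised against the WT mean of their stage (median log2 difference 1.89 and 0.97 for effective lengths under 1000 nt) and genes with long transcripts lowered (-2.26 and -1.13 for lengths over 4000 nt), whereas the other 9 libraries gave medians from -0.27 to 0.25. Fits without this pair are given beside the main results below. All values come from bulk RNA, in which fewer expressing cells and less RNA per cell cannot be told apart.

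Among 5 B cell markers, Pax5, Cd79a, Ms4a1 and Ebf1 averaged at most 0.101 TPM in DN3 groups, whereas Cd79b stood at 84.5 ± 2.09 TPM in DN3 WT and 66.5 ± 13.8 in DN3 KO. The summed level of the list was 61.2 to 66.1 CPM in DN3 WT and 46.2 to 71.9 CPM in DN3 KO. Among 6 endothelial markers, Tek and Kdr were at 0 in DN3 libraries and Cdh5, Emcn and Tie1 averaged at most 0.0716 TPM, whereas Pecam1 stood at 36.5 ± 9.17 TPM in DN3 WT and 28.7 ± 19.0 in DN3 KO. That list summed to 55.1 to 85.3 CPM in DN3 WT and 26.1 to 88.8 CPM in DN3 KO. The summed level of 7 myeloid markers was 114 to 159 CPM in DN2 WT, 134 and 357 CPM in the 2 DN2 KO libraries, 29.9 to 36.8 CPM in DN3 WT and 34.7 to 47.6 CPM in DN3 KO. The myeloid sum was thus lower in all DN3 libraries than in any DN2 library. The summed level of 7 dendritic cell markers was 15.1 to 26.3 CPM in DN2 WT and 1.79 and 16.8 CPM in DN2 KO. It was 1.37 to 2.51 CPM in DN3 WT and 0.708 to 1.78 CPM in DN3 KO. For 7 stromal and epithelial markers the sum was 167 to 199 CPM in DN2 WT and 41.8 and 216 CPM in DN2 KO. It was 82.6 to 179 CPM in DN3 WT and 99.9 to 116 CPM in DN3 KO. The part of all such cells in the differences below was not tested.

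**Figure D1:**
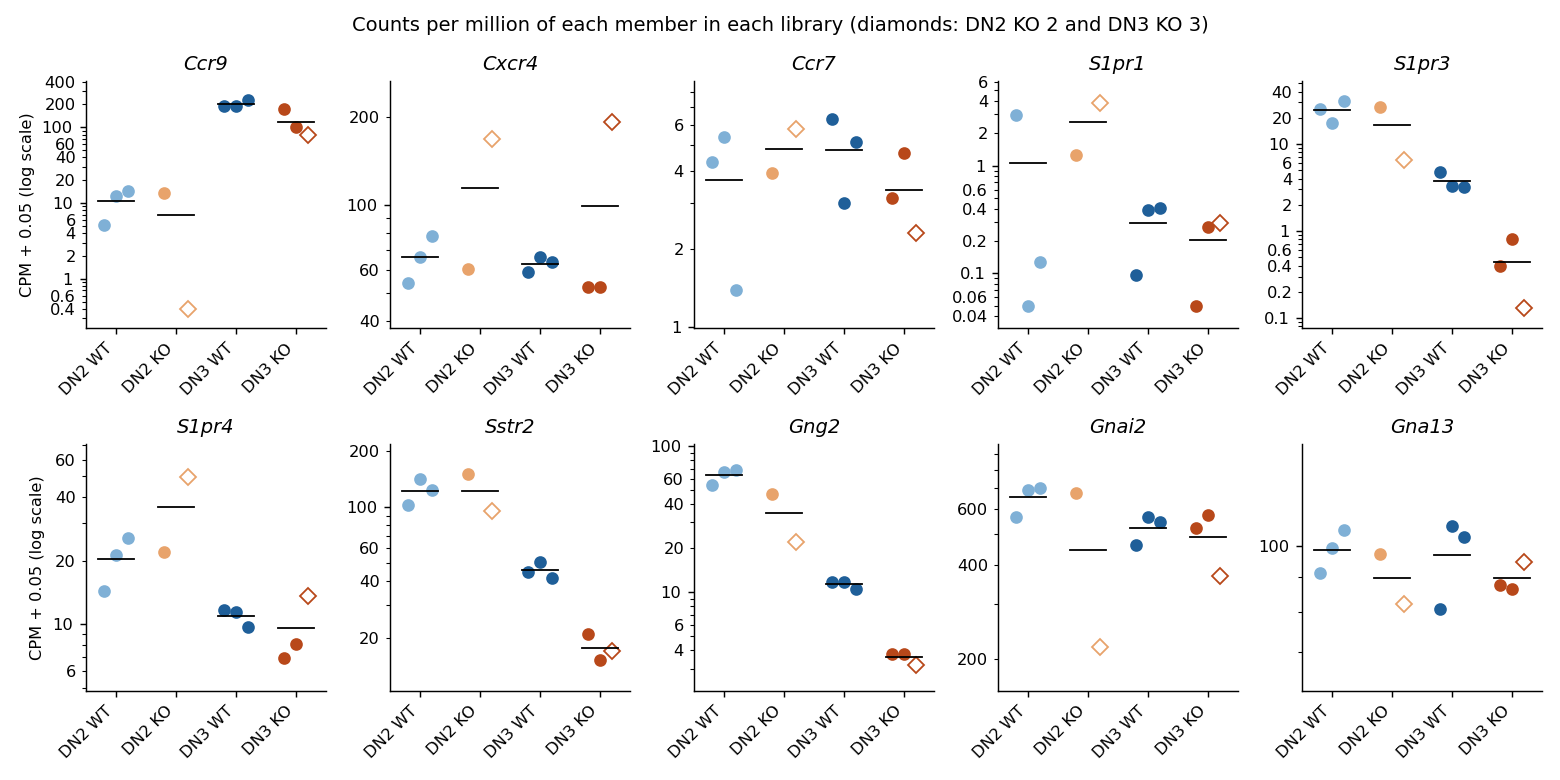
CPM values (with 0.05 added, log scale, a separate axis for each gene) of the 10 genes in each of 11 libraries. Each symbol is a library, the bar is the mean of its group, and diamonds are DN2 KO replicate 2 and DN3 KO replicate 3. Ccr9 is the gene with the widest rise from DN2 to DN3, and S1pr3, Sstr2 and Gng2 step down from DN2 WT to DN3 WT and again to DN3 KO.

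Levels can be ordered between genes only per transcript length, so TPM was used for this. In DN2 WT thymocytes Gnai2 led with 457 ± 30.0 TPM, followed by Sstr2 (86.8 ± 6.81), Cxcr4 (61.5 ± 7.17), Gng2 (55.9 ± 5.97), Gna13 (29.6 ± 2.33), S1pr4 (12.2 ± 2.97), S1pr3 (7.76 ± 2.42), Ccr9 (5.11 ± 2.20), Ccr7 (2.69 ± 1.48) and S1pr1 (0.505 ± 0.843; all SD, n = 3). Neighbours from S1pr4 down to S1pr1 overlapped in their libraries, as did Cxcr4 and Gng2. In DN3 WT thymocytes the order was Gnai2 (398 ± 45.6), Ccr9 (110 ± 15.8), Cxcr4 (64.2 ± 5.42), Sstr2 (35.1 ± 2.08), Gna13 (34.7 ± 8.19), Gng2 (8.30 ± 1.41), S1pr4 (7.14 ± 0.513), Ccr7 (3.85 ± 1.41), S1pr3 (1.25 ± 0.289) and S1pr1 (0.125 ± 0.0891). There, Sstr2 overlapped with Gna13 and Gng2 with S1pr4, and the other neighbours were apart. Ccr9 thus moved from the eighth to the second place, and Gng2 from the fourth to the sixth. The place of Gng2 in DN2 WT rests in part on its short transcript Gng2-206 (393 nt). There it held 46.5% ± 5.37 of Gng2 TPM from 7.80% of the gene's estimated counts, and in DN3 WT 3.55% ± 4.72 of TPM.

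The first comparison asked how the receptors and subunits change between DN2 and DN3 in WT mice. It shares the DN3 WT libraries with the choice of S1pr3, Sstr2 and Gng2, so for these 3 genes the stage values are a description. Across all 13749 genes, edgeR's quasi-likelihood test placed 309 lower (2.25% of genes tested) and 257 higher (1.87%) in DN3 WT at a Benjamini-Hochberg adjusted p under 0.05. Every DN3 WT library lay below every DN2 WT library for 17.3% of genes and above it for 17.5%.

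Of the 7 genes that the choice did not rest on, Ccr9 was the one that passed the test. CCR9 is the receptor for the chemokine CCL25 made by thymic epithelium. It was measured at 5.10, 12.2 and 14.2 CPM in the DN2 WT libraries and at 191.4, 191.2 and 228.3 CPM in the DN3 WT libraries. All DN3 libraries were above all DN2 libraries, and the mean was 19.4-fold higher. The fitted log2 fold change was 4.28 ± 0.989 (SE), with an edgeR adjusted p of 0.0394. No label pairs same-numbered DN2 and DN3 WT libraries, and the correlations of their deviations do not settle whether they were paired. An edgeR fit with that pairing as a block gave an adjusted p of 0.0769 at a log2 fold change of 4.39. Without the pair of libraries that stood apart, the adjusted p was 0.00013 and the log2 fold change 4.29. With any 1 of the DN2 WT, DN3 WT or DN3 KO libraries left out, the call was lost (adjusted p 0.0508 to 0.143) at log2 fold changes of 3.95 to 4.55. In DN3 WT libraries Ccr9 took 58.9% ± 1.71 of the TPM summed over 23 chemokine receptor genes, against 6.43% ± 2.40 in DN2 WT. The transcripts Ccr9-201 and Ccr9-204 held 48.9% ± 4.11 and 44.9% ± 5.03 of the gene's TPM in DN3 WT.

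S1pr4, a Gi-coupled S1P receptor of lymphoid cells, and Gnai2 had lower values in all DN3 WT libraries than in any DN2 WT library without passing the test. S1pr4 was measured at 14.3, 21.1 and 25.4 CPM in DN2 WT and at 11.6, 11.4 and 9.68 CPM in DN3 WT. The log2 fold change was -0.90 ± 0.399, with an edgeR adjusted p of 0.361, or 0.0394 without the pair of libraries that stood apart. Gnai2, the main inhibitory alpha subunit here, was measured at 566.3, 691.8 and 702.5 CPM in DN2 WT and at 461.8, 565.4 and 545.2 CPM in DN3 WT. These ranges lay just apart, and the log2 fold change was -0.32 ± 0.372.

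Cxcr4, the receptor for CXCL12, lay between 53.9 and 78.4 CPM in DN2 WT and between 58.7 and 66.4 CPM in DN3 WT, with a log2 fold change of -0.07 ± 0.531, or -0.05 ± 0.156 without the pair that stood apart. Gna13, the alpha subunit of the G12/13 class, lay between 91.2 and 105.4 CPM in DN2 WT and between 80.8 and 106.8 CPM in DN3 WT (log2 fold change -0.03 ± 0.214). For both genes the ranges overlapped.

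Ccr7 and S1pr1, the receptors best known from mature T cells, were low in both stages. Ccr7 was measured at 4.27, 5.32 and 1.34 CPM in DN2 WT and at 6.25, 2.94 and 5.08 CPM in DN3 WT, with no separation. S1pr1 stood at 2.92, 0 and 0.0767 CPM in DN2 WT and at 0.0456, 0.341 and 0.354 CPM in DN3 WT. The DN2 mean of S1pr1 rested on 1 library with 67 estimated counts, whereas the others held 0 and 2, and no DN3 WT library held more than 8. A stage difference of S1pr1 was not detectable at this depth.

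The 3 genes chosen for their DN3 values also had lower values in DN3 WT than in DN2 WT. Gng2 was measured at 54.3, 66 and 68.5 CPM in DN2 WT and at 11.8, 11.6 and 10.4 CPM in DN3 WT, a 5.58-fold lower mean (log2 fold change -2.48 ± 0.318). S1pr3, a receptor that couples to Gi, Gq and G12/13, was measured at 25.2, 17.2 and 30.9 CPM in DN2 WT and at 4.66, 3.20 and 3.18 CPM in DN3 WT, a 6.64-fold lower mean (-2.73 ± 0.651). Sstr2, a Gi-coupled receptor for somatostatin, was measured at 102.3, 141.5 and 123.0 CPM in DN2 WT and at 44.7, 50.7 and 41.9 CPM in DN3 WT, a 2.67-fold lower mean (-1.42 ± 0.266). In each of the 3 genes, all DN3 WT libraries were below all DN2 WT libraries.

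The DNA just upstream of Ccr9, S1pr3 and Sstr2 is shown because the first rose and the other 2 had lower values from DN2 to DN3. Each line gives the 250 bases before the RefSeq start (GRCm38.p6), 5′ to 3′ on the gene's strand, which is the plus strand for all 3. Capitals mark matches on either strand to letters that recall known kinds of site: E boxes, which E proteins bind, as CAGCTG and with the middle changed as CAGGTG, RUNX sites as TGTGGT, sites of GATA factors as AGATAA, ETS sites as ACTTCC, GC boxes as GGGCGG and TATA boxes as TATAAA.
Ccr9, chr9:123766961-123767210: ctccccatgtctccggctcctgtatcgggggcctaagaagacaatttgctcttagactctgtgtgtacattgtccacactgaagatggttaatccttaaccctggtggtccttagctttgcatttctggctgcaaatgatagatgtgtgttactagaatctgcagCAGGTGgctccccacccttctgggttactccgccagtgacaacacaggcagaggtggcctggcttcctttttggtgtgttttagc
S1pr3, chr13:51408368-51408617: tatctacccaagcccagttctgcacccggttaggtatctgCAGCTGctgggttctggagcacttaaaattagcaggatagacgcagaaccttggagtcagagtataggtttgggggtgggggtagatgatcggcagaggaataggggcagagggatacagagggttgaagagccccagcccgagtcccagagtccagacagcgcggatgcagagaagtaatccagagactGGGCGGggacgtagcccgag
Sstr2, chr11:113619077-113619326: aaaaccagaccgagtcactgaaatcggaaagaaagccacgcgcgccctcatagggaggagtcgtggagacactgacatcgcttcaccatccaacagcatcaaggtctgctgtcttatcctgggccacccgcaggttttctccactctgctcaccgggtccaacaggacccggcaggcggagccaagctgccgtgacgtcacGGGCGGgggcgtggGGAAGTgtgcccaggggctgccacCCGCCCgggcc

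Ccr9 held a CAGGTG E box 85 bases before the start, a motif found in 17.2% of 32851 mouse windows of this length. S1pr3 held a CAGCTG E box 210 bases before the start (13% of windows) and a GC box 20 bases before it (32.7% of windows). Sstr2 held GC boxes 49 and 11 bases before the start and an ETS match 35 bases before it (19.7% of windows). None of the 3 windows matched the RUNX, GATA or TATA letters, which were found in 14%, 9.99% and 12.4% of windows. The windows also differed in base composition: GC content was 50.4% for Ccr9, 56.4% for S1pr3 and 63.6% for Sstr2, with 3, 9 and 18 CpG dinucleotides, against medians of 52.4% and 6. No motif of this list was shared by all 3 windows. The end of the Ccr9 window overlaps an exon of the transcript Ccr9-206, and the other windows hold no annotated exon. The Gng2 window in the same table lies in an intron of Gng2-204, because the RefSeq start is 556 bases inside the start of the transcript that took most of the counts, and it is not shown. Windows were found for 7 of the 10 genes.

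The second comparison set Arpp21-/- against WT in DN3 thymocytes. Of the 7 genes not chosen on it, none passed the test, and edgeR called 1 gene of 13749 (0.00727%). By library, every DN3 KO library lay below every DN3 WT library for 5.58% of all genes tested and above for 4.96%. These shares were taken on CPM, and on CPM Ccr9 was the one of the 7 genes that was below WT without overlap. On TPM, S1pr4 was also below WT without overlap, at 6.59 to 7.61 in DN3 WT and 4.64 to 5.38 in DN3 KO. No share of all genes was taken on TPM. At an unadjusted p under 0.05 there were 214 genes, DESeq2 called 16 and limma voom with sample weights called 118, and neither tool called any of the 7.

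S1pr3, Sstr2 and Gng2 had been selected for lower values here, and their values describe by how much. S1pr3 was measured at 4.66, 3.20 and 3.18 CPM in DN3 WT and at 0.344, 0.762 and 0.0807 CPM in DN3 KO. The KO libraries held 8, 14 and 1 estimated counts, the last being under the floor of 3 counts, against 72 to 102 in WT. The KO mean was 9.30-fold lower, with a log2 fold change of -3.15 ± 0.707, or -2.75 ± 0.440 without the pair that stood apart. Because the KO counts are this few, the size of the S1pr3 difference is uncertain. In an analysis of log2(TPM + 1), where the pseudocount exceeds the KO level, it came to -0.99.

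Sstr2 was measured at 44.7, 50.7 and 41.9 CPM in DN3 WT and at 21, 15.1 and 17.0 CPM in DN3 KO. The KO mean was 2.59-fold lower (log2 fold change -1.37 ± 0.266, or -1.34 ± 0.200 without the pair). Sstr2 is the best counted of the 3 genes, with 210 to 489 estimated counts in the KO libraries, and 2 of its 3 transcripts made up nearly all of the signal in both genotypes. Sstr2-203 held 86.7% ± 1.35 of its TPM in DN3 WT and 89.0% ± 5.27 in DN3 KO. The gene lies inside Slc39a11 on the opposite strand, without shared exons.

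Gng2 was measured at 11.8, 11.6 and 10.4 CPM in DN3 WT and at 3.74, 3.70 and 3.15 CPM in DN3 KO. The KO mean was 3.19-fold lower (log2 fold change -1.67 ± 0.314, or -1.60 ± 0.187 without the pair). The lowest value was that of the library that stood apart, and all 3 KO libraries lay below all WT libraries. By transcript, Gng2-204 (3826 nt) held 88.9% of the gene's estimated counts in DN3 WT and 83.6% in DN3 KO. Gng2-204 alone came to 10.00 ± 0.284 CPM in WT and 2.97 ± 0.480 CPM in KO. The remaining Gng2 transcripts are 393 to 960 nt long, and few counts assigned to them weigh heavily per length, so that Gng2-204 held 49.3% ± 10.6 of Gng2 TPM in DN3 WT and 30.0% ± 10.6 in DN3 KO. With an offset for average transcript length the Gng2 log2 fold change was -1.02.

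**Figure D2:**
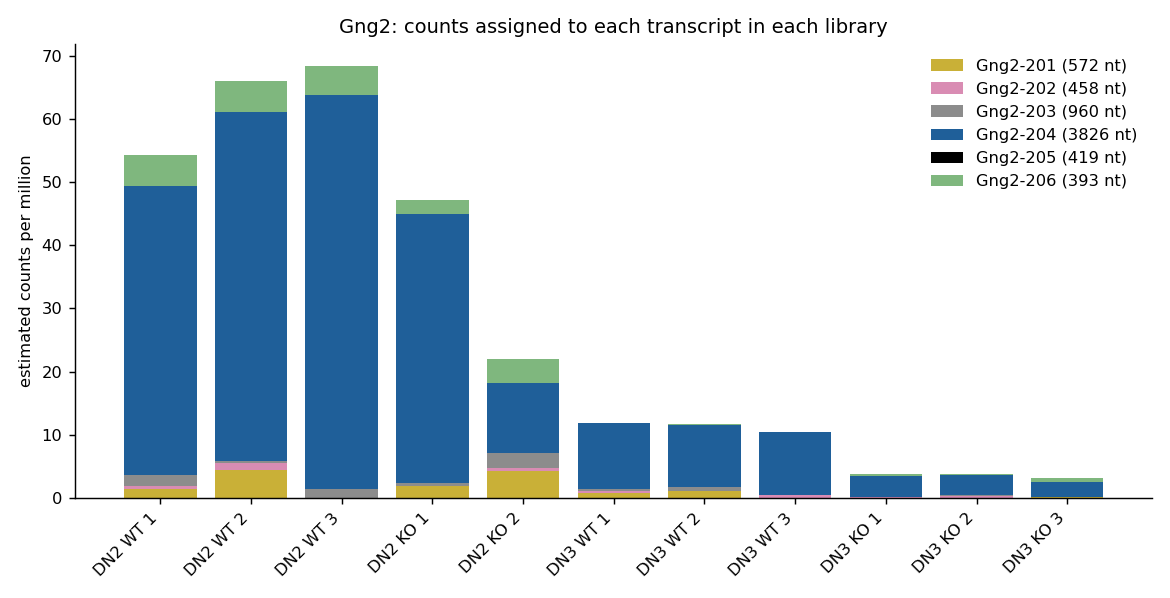
Estimated counts, as CPM, assigned to each annotated Gng2 transcript (stacked colours, with transcript length in nt) in each of the 11 libraries. The long transcript Gng2-204 is the largest part of every bar, with its smallest share, 50.8%, in DN2 KO replicate 2, and the 3 DN3 KO bars are the lowest.

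Ccr9 was measured at 191.4, 191.2 and 228.3 CPM in DN3 WT and at 173.4, 100.7 and 80.0 CPM in DN3 KO. All KO libraries were below all WT libraries, but their spread was wide, and the lowest value came from the library that stood apart. The log2 fold change was -0.79 ± 0.868 with an edgeR adjusted p of 1, and -0.58 ± 0.374 without the pair. Across 22 alternative analyses the log2 fold change lay between -1.17 and -0.57, and the lowest adjusted p was 0.107. Cxcr4 was measured at 58.7, 66.4 and 63.9 CPM in DN3 WT and at 52.5, 52.4 and 191.9 CPM in DN3 KO. Here 1 library decided the direction: the log2 fold change was 0.65 ± 0.533 with DN3 KO replicate 3 and -0.27 ± 0.175 without the pair.

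S1pr4 was measured at 11.6, 11.4 and 9.68 CPM in DN3 WT and at 6.91, 8.00 and 13.6 CPM in DN3 KO. The highest KO value was again that of replicate 3, and the log2 fold change was -0.20 ± 0.398, or -0.55 ± 0.276 without the pair. Gnai2 lay between 461.8 and 565.4 CPM in WT and between 367.6 and 574.5 CPM in KO (-0.10 ± 0.372, or 0.06 ± 0.140 without the pair). Gna13 lay between 80.8 and 106.8 CPM in WT and between 86.5 and 94.7 CPM in KO (-0.11 ± 0.214, or -0.16 ± 0.153 without the pair). Ccr7 lay between 2.94 and 6.25 CPM in WT and between 2.26 and 4.63 CPM in KO (-0.51 ± 0.561, or -0.30 ± 0.588 without the pair). S1pr1 held at most 8 estimated counts in any DN3 library, and no difference between genotypes was detectable at this depth.

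**Figure D3:**
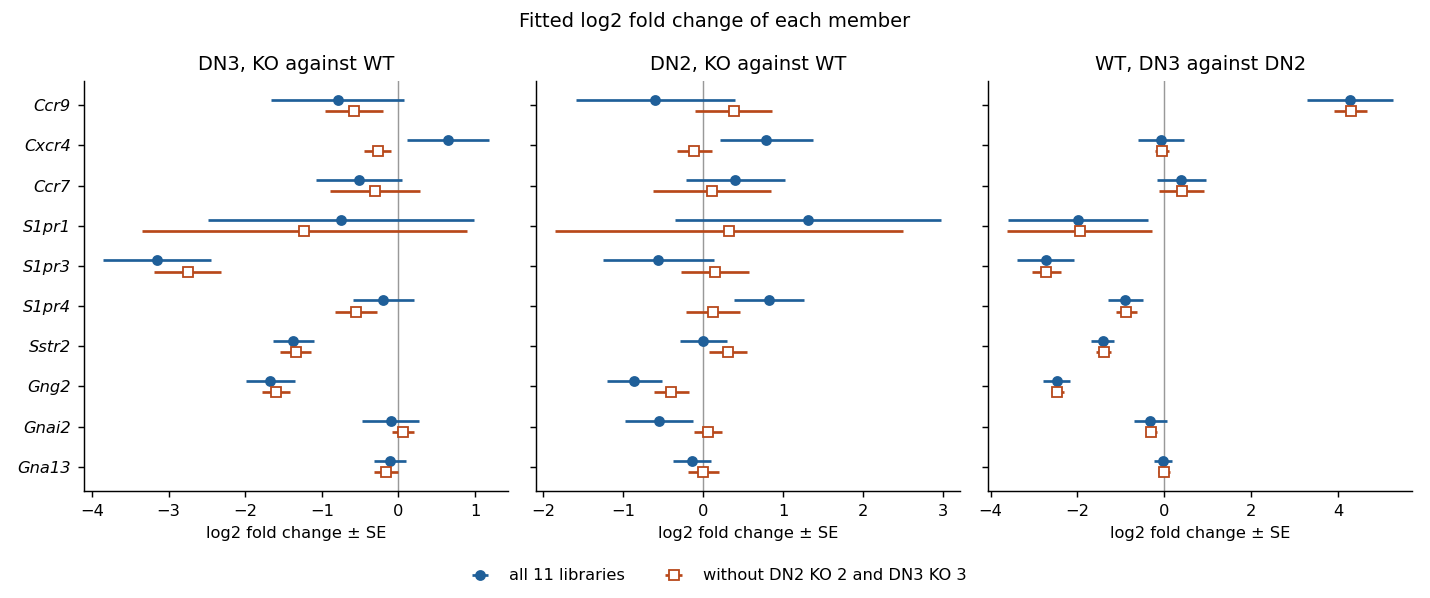
Fitted log2 fold change with its SE for the 10 genes in 3 comparisons, with all 11 libraries (filled circles) and without DN2 KO replicate 2 and DN3 KO replicate 3 (open squares). S1pr3, Sstr2 and Gng2 lie left of 0 in both the DN3 genotype panel and the stage panel, whereas in the DN2 genotype panel no gene passes the test and Ccr9, Cxcr4, S1pr3, Sstr2 and Gnai2 change side without the pair.

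The third comparison set Arpp21-/- against WT in DN2 thymocytes. The rule for choosing genes does not name this contrast, and all 10 were tested, although they were picked with earlier results of these data known. None was called, and edgeR called none of 13749 genes (0%), while 2019 had an unadjusted p under 0.05 and DESeq2 called 38. Every DN2 KO library lay below every DN2 WT library for 8.27% of genes and above it for 7.52%. Gng2 was the 1 member among the 10 without overlap, at 54.3, 66 and 68.5 CPM in WT and at 47.1 and 22.0 CPM in KO. Its log2 fold change was -0.86 ± 0.345 (edgeR unadjusted p = 0.0309, adjusted p = 0.336), and -0.40 ± 0.217 without the pair, where a single KO library remained. Sstr2 was measured at 102.3, 141.5 and 123.0 CPM in WT and at 149.2 and 95.1 CPM in KO, and S1pr3 at 25.2, 17.2 and 30.9 CPM in WT and at 26.7 and 6.52 CPM in KO. For Sstr2 the KO libraries fell on either side of the WT libraries, and for S1pr3 one lay within them and the other below, with log2 fold changes of -0.00 ± 0.291 and -0.56 ± 0.689, or 0.31 ± 0.234 and 0.15 ± 0.427 without the pair.

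On CPM, some of the remaining genes also split between the 2 DN2 KO libraries. Replicate 1 lay within or near the WT range for Ccr9 (13.5 CPM against 5.10 to 14.2), Cxcr4 (60.5 against 53.9 to 78.4), S1pr4 (21.8 against 14.3 to 25.4) and Gnai2 (672.7 against 566.3 to 702.5). Replicate 2 lay far from it, at 0.347, 169.0, 49.7 and 218.7 CPM. A fit without DN2 KO replicate 1, which leaves the other library alone and assumes that it varies like the other groups, called Ccr9, S1pr4, Gng2 and Gnai2, and with it 6773 genes of those tested. Gna13 stood at 97.3 and 82.2 CPM in the KO libraries against 91.2 to 105.4 CPM in WT. Ccr7 stood at 3.85 and 5.72 CPM against 1.34 to 5.32 in WT, and S1pr1 at 1.22 and 3.74 CPM against 0 to 2.92.

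Whether the genotype difference itself changed with stage was tested by an interaction term, which called no gene (0%). For the 7 genes not chosen on the DN3 libraries, the interaction on the log2 scale ranged from -2.07 ± 2.42 for S1pr1 to 0.45 ± 0.560 for Gnai2. Without the pair it ranged from -1.55 ± 2.97 for S1pr1 to 0.00 ± 0.226 for Gnai2. For the chosen genes, whose DN3 libraries enter the term, it was -2.60 ± 0.953 for S1pr3, -1.37 ± 0.389 for Sstr2 and -0.81 ± 0.453 for Gng2, as a description. Without the pair these values were -2.90 ± 0.592, -1.65 ± 0.300 and -1.20 ± 0.274. No difference between the stages in the effect of the KO was thus shown for any of the 10 genes.

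Paralogs put these levels in the context of each family. Among S1P receptors, S1pr2, which couples to G12/13 and was not in the set, was the most abundant in DN3 WT at 18.3 ± 2.67 TPM, against 7.54 ± 0.113 TPM in DN2 WT (log2 fold change 0.85 ± 0.242, edgeR adjusted p 0.0919). S1pr4 held 43.5% ± 7.63 and S1pr3 27.3% ± 5.93 of the TPM of all 5 S1P receptors in DN2 WT. In DN3 WT these shares were 26.7% ± 2.45 and 4.72% ± 1.27, and in DN3 KO S1pr3 held 0.607% ± 0.577. S1pr2 in DN3 KO stood at 14.9 ± 6.32 TPM. S1pr5, an S1P receptor of natural killer cells, stayed under 0.04 TPM on average in every group. Of the 5 somatostatin receptor genes, Sstr2 held all of the TPM in every library, and the others were listed at 0.

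Gng2 is a minor part of the gamma subunit RNA. It held 5.96% ± 0.730 of the TPM of 12 gamma subunit genes in DN2 WT, 1.10% ± 0.161 in DN3 WT and 0.461% ± 0.103 in DN3 KO. Gng5 led with 492 ± 28.1 TPM in DN3 WT and 489 ± 6.39 in DN3 KO, followed by Gng10 with 151 ± 18.2 and 180 ± 78.2. Of the other 5 gamma subunits tested, 1 was called lower in DN3 WT than in DN2 WT, against 2.25% of all genes tested. This was Gng12, at 43.9 ± 2.49 TPM in DN2 and 18.6 ± 2.42 TPM in DN3 (log2 fold change -1.15 ± 0.280, edgeR adjusted p 0.0498). Between genotypes in DN3, Gng12 had a log2 fold change of 0.41 ± 0.278. None of the 4 beta subunits tested was called in any comparison. Gnb2 led them at 301 ± 15.4 TPM in DN3 WT, before Gnb1 at 34.3 ± 9.46.

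Among alpha subunits, Gnai2 held 48.6% ± 1.62 of the TPM of 16 genes in DN3 WT and 47.8% ± 11.9 in DN3 KO, and the next was Gnai3 at 238 ± 10.4 TPM in DN3 WT. Gna13 held 4.18% ± 0.549 and 3.88% ± 0.845. The stage comparison called 1 of 13 alpha subunits tested lower in DN3 WT, against 2.25% of all genes tested. This was Gna15, a Gq class subunit of blood cells (9.16 ± 3.26 TPM in DN2 and 0.481 ± 0.0379 in DN3, log2 fold change -4.93 ± 0.556, edgeR adjusted p 0.00123). In DN3 KO it stood at 0.0776 ± 0.0728 TPM.

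**Figure D4:**
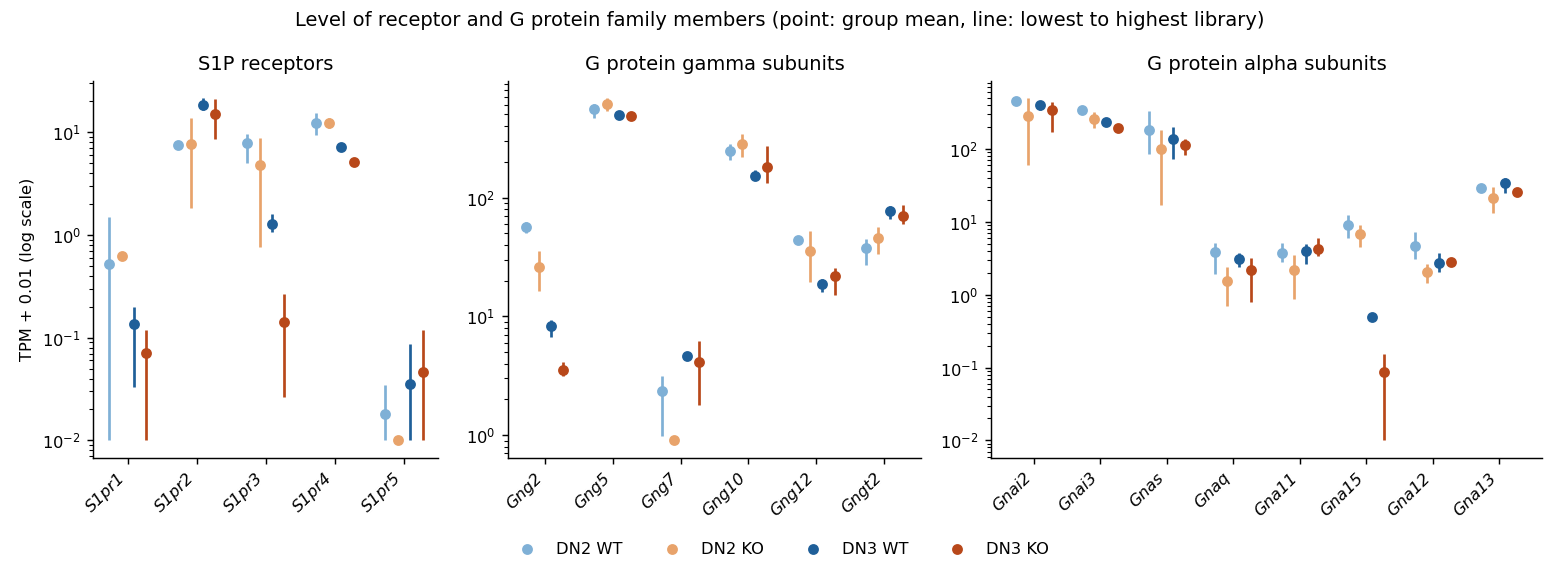
TPM values (with 0.01 added, log scale) of the S1P receptors and of the more abundant G protein gamma and alpha subunits in the 4 groups. Points are group means and lines run from the lowest to the highest library. Group means are lower in both DN3 groups than in both DN2 groups for S1pr1, S1pr3, S1pr4, Gng2, Gng5, Gng10, Gng12, Gnai3 and Gna15. Libraries overlap between stages for some of these, such as S1pr3 between DN2 KO and DN3 WT. The mean of S1pr2 is higher in DN3 WT (18.3 TPM) than in DN2 WT (7.54 TPM). Gng5 has the highest mean of the gamma subunits in each group.

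The wider pathway was counted from lists of genes. In the 2 genotype comparisons and the interaction, edgeR called no gene of any of these lists. Of the 16 chemokine receptors tested, 2 were called in the stage comparison, both higher in DN3, against 1.87% of all genes tested. They were Ccr9 and Ccr4, the receptor for CCL17 and CCL22 (0.134 ± 0.140 TPM in DN2 WT and 2.51 ± 0.939 in DN3 WT, log2 fold change 4.64 ± 0.958, edgeR adjusted p 0.0237). The median stage log2 fold change of the 16 receptors was 0.11, against 0.01 over all genes tested. None of 8 genes of S1P and lipid phosphate metabolism was called, and Sgpl1, the S1P lyase, led them at 27.8 ± 6.98 TPM in DN3 WT, followed by the kinase Sphk2 at 26.9 ± 4.19. None of 11 other receptors of migrating thymocytes was called. P2ry10 and Ptger4 were the most abundant of these, at 80.3 ± 1.78 and 29.9 ± 9.63 TPM in DN3 WT.

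Of 16 genes that switch receptors off, 2 were called lower in DN3 WT, against 2.25% of all genes tested. Rgs18, a regulator that speeds GTP hydrolysis by alpha subunits, was measured at 50.1 ± 7.93 TPM in DN2 and 2.76 ± 0.905 TPM in DN3 (log2 fold change -4.31 ± 0.424, edgeR adjusted p 0.000526). Arrb2, an arrestin that uncouples and internalises receptors, was measured at 119.9 ± 15.7 and 54.6 ± 7.42 TPM (-1.26 ± 0.298, edgeR adjusted p 0.0441). Rgs19 was the most abundant of these genes in DN3 WT, at 86.7 ± 10.4 TPM. None of the 23 genes tested that carry the signal to the cytoskeleton was called, with a median log2 fold change of -0.19 between stages and -0.23 between genotypes in DN3. Coro1a and Rac2 led this list at 1432 ± 16.2 and 639.8 ± 21.1 TPM in DN3 WT.

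The RNA profiles of S1pr3, Sstr2 and Gng2 over the 11 libraries resembled each other. On log2(CPM + 0.5), Pearson's r was 0.982 between S1pr3 and Gng2, 0.973 between Sstr2 and Gng2 and 0.956 between S1pr3 and Sstr2. Without the pair of libraries that stood apart, r was 0.982, 0.977 and 0.962 over 9 libraries. S1pr4, which was not chosen on DN3, came close to this profile over the 9 libraries. Its r with S1pr3, Sstr2 and Gng2 was 0.940, 0.941 and 0.946 there, against 0.608, 0.732 and 0.659 over all 11. Over all 13749 genes, the 3 genes most like S1pr3 were Itgb3 (r = 0.985), the integrin beta 3 chain, Gng2 and Cnn3 (0.978), a calponin that binds actin. Those most like Sstr2 were Gng2, Anxa5 (0.969), an annexin, and Cnn3 (0.969). Those most like Gng2 were Il1r1 (0.985), the interleukin-1 receptor, Vim (0.983), which encodes vimentin, and S1pr3. The libraries share the difference between stages, and the 3 genes share the way they were chosen, so these coefficients describe a common profile. Of these neighbours, Itgb3 was measured at mean levels of 39.1, 35.4, 16.5 and 6.37 CPM in DN2 WT, DN2 KO, DN3 WT and DN3 KO, and Vim at 231.4, 153.6, 44.1 and 25.1 CPM. Among the 10 genes, Ccr9 ran opposite to S1pr4 (r = -0.878, or -0.774 without the pair of libraries) and to Gng2 (-0.655, or -0.864). The same held for S1pr1 (-0.738, or -0.533), Sstr2 (-0.68, or -0.786) and S1pr3 (-0.606, or -0.845). For Ccr7, Cxcr4, Gnai2 and Gna13, r was -0.102, -0.387, 0.346 and 0.169, or 0.214, -0.189, -0.708 and -0.202.

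The 3′ untranslated regions (3′ UTRs) of the 10 genes were compared with those of 12539 tested genes with a coding transcript, as ARPP21 binds this part of RNA. For each gene the coding transcript with most counts was used (GENCODE M21). Uridine made up 40.4% of the Cxcr4 3′ UTR, which has 10 runs of 5 or more U in 644 nt, and 98.6% of genes had a lower uridine share. The median gene had 29.0% uridine. S1pr3 (27.9% of 2876 nt) and Sstr2 (24.6% of 662 nt) were below the median and Gng2 (30.8% of 3248 nt) above it. Gna13 (31.4%) and S1pr1 (31.1%) were above it as well, and Ccr9 (24.6%), Gnai2 (22.4%), S1pr4 (22.3%) and Ccr7 (21.8%) below. Thus 4 of the 10 genes had a uridine share above the median. Runs of 5 or more U numbered 5 in S1pr3, 1 in Sstr2 and 15 each in Gng2 and Gna13, and the median gene had 2. Per 1000 nt these were 1.74 in S1pr3, 1.51 in Sstr2, 4.62 in Gng2 and 3.07 in Gna13, against a median of 2.29. The share of uridine did not separate the 3 genes chosen for lower values from the other 7, and no binding was measured in these libraries.

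In the GRCm38 annotation, Gng2 lies on chromosome 14 (19872559 to 19977627, minus strand), S1pr3 on chromosome 13 (51408639 to 51422797, plus strand) and Sstr2 on chromosome 11 (113619342 to 113626028, plus strand). Ccr9 lies on chromosome 9 (123678439 to 123784330, plus strand), as does Gnai2 (107614125 to 107635367, minus strand). Cxcr4 is on chromosome 1 (128588199 to 128592293, minus strand), S1pr1 on chromosome 3 (115710433 to 115715072, minus strand) and S1pr4 on chromosome 10 (81497747 to 81500132, minus strand). Ccr7 (99144196 to 99155077, minus strand) and Gna13 (109362831 to 109401369, plus strand) lie on chromosome 11. Exons of Ccr9, S1pr3, Gng2 and Gna13 overlap exons of annotated genes on the opposite strand. The library kit does not mark strand, so reads of such partners cannot be told apart, although Slc6a20a, the protein-coding partner of Ccr9, held 0 counts in DN3 WT.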

How the data were processed

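Thymocytes of both genotypes were sorted at the DN2 and DN3 stages, and poly-A libraries were made with SMART-Seq v4 and Nextera and sequenced paired-end. The authors quantified transcripts with kallisto 0.46 (submitters' processing notes) on GRCm38. The deposited tables give for each of 119414 transcripts an estimated count, a TPM value (scaled by the authors for length and depth) and an effective length.

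Transcripts were matched by identifier to GENCODE M21 (116640 matched, 98.9% to 99.0% of counts), then added up for each gene, with sums rounded to integers. Genes passing edgeR's filterByExpr (minimum count 10, minimum total 15) were fitted in 4 groups with TMM factors and the quasi-likelihood test (edgeR 4.0.16, R 4.3.3), two-sided, with Benjamini-Hochberg adjustment over 13749 genes. Calls were made at an adjusted p under 0.05. SE is taken as |log2 fold change|/√F, an approximation. CPM values use TMM-scaled library sizes. Average effective length was used as an offset in 1 alternative. DESeq2 1.42.0, limma 3.58.1 and the other alternatives are given in the closing section. The code was tested on simulated data.

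Groups came from the sample titles. Deviations of same-numbered DN2 WT and DN3 WT libraries from their group means correlated at r = 0.441, 0.134 and 0.300 across genes. Differently numbered libraries were not set beside these values, which do not settle whether the libraries were paired. No label states a pairing, so it was fitted only as an alternative. The 10 genes and all gene lists were chosen with earlier results of these data known. Beside the 10 genes and Arpp21, the text names up to 3 called genes per list and comparison, the 2 genes of each list with most TPM in DN3 WT, paralogs, marker genes and the 3 genes most like S1pr3, Sstr2 and Gng2. Promoter windows are from RefSeq (GRCm38.p6). 3′ UTRs were read from GENCODE M21. The list of egress regulators is not reported here.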

Additional observations from a re-analysis of the deposited data

How the results depend on the processing

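The values rest on 2 or 3 libraries a group, and on a DN2 KO group in which 1 of the 2 libraries stood apart. For each comparison, log2 fold changes of the 10 genes were refitted under each alternative in which the gene was kept, which left 18 to 19 refits for S1pr1, 20 to 22 for Ccr7 and 21 to 23 for the others. Refits kept direction and side of the threshold in 202 cases for DN3 KO against WT, 190 for DN2 KO against WT, 182 for the interaction and 178 for the stage comparison. Direction turned in 6, 22, 23 and 13 cases, and 7, 4, 1 and 2 passed the threshold only in the refit with the direction kept (for the interaction, Ccr9 also passed with its direction turned), while 32 stage cases no longer did. The cause was not tested for any value below. Low counts limit S1pr1 and, in DN3 KO, S1pr3.

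The number of the 10 genes called was 0 in DN3 KO against WT. It was 3 with DESeq2 and 3 with limma voom and sample quality weights (S1pr3, Sstr2 and Gng2 both times), and 1 (Gng2) without DN2 KO replicate 2 and DN3 KO replicate 3. Those 3 genes were chosen on this comparison, so these counts restate the choice and test nothing. Leaving out 1 library each time gave 0 to 0 in this comparison and 1 to 4 for stage. For DN2 and the interaction, leaving out a DN2 KO library left a single library in that group. Calls are therefore not counted there, and the ranges of the log2 fold changes are given below. The stage count was 4. It was 2 with limma-trend on log2(TPM + 1) and 1 on log2(TPM + 0.1). It was 2 with a replicate block and 1 with a replicate block within genotype. Of the 4 genes, Ccr9 was not chosen on DN3 libraries. The other 3, S1pr3, Sstr2 and Gng2, were chosen with the DN3 WT libraries that the stage comparison shares. For these 3 genes all stage counts given here are a description. No share of all genes is given for the limma-trend and block settings. With the replicate block, the count among the 10 genes stayed at 0 in both genotype comparisons and the interaction. Deviations of DN3 WT and KO libraries of the same number correlated at r = 0.344, -0.177 and 0.122, and those of DN2 WT and KO at 0.191 and 0.190. No label pairs the genotypes, and these values do not settle whether the libraries were paired. Over all genes, edgeR called 1 gene in DN3 against 16 with DESeq2 and 118 with voom weights, 0 in DN2 against 38 with DESeq2, and 0 for the interaction against 10 with DESeq2. For stage it called 309 lower and 257 higher against 1191 with DESeq2 and 2324 with voom weights.

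Directions that turned, as log2 fold changes, were as follows. In DN3 KO against WT, Cxcr4 went from 0.65 to -0.23 with voom weights, -0.27 without the pair and -0.26 to 0.96 with 1 library left out. Gnai2 went from -0.10 to 0.05, 0.06 and -0.23 to 0.07 in the same settings. In DN2 KO against WT, limma-trend on log2(TPM + 1) and log2(TPM + 0.1) turned Ccr7 from 0.40 to -0.12 and -0.12 and Cxcr4 from 0.79 to -0.02 and -0.02. Without the pair, Ccr9 went from -0.60 to 0.38, Cxcr4 to -0.11, S1pr3 from -0.56 to 0.15, Sstr2 from -0.00 to 0.31 and Gnai2 from -0.55 to 0.06. Sstr2 was also 0.04 with DESeq2, 0.04 with its size factors and 0.01 with a filter of 10 CPM, and Gna13 went from -0.14 to 0.08 with a length offset. With 1 library left out, Ccr9 lay between -4.90 and 0.39, Cxcr4 between -0.11 and 1.34, S1pr3 between -1.91 and 0.15, Sstr2 between -0.37 and 0.31, Gnai2 between -1.59 and 0.06 and Gna13 between -0.27 and 0.00.

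For the interaction, Ccr9 went from -0.18 to 1.19 on log2(TPM + 0.1), 1.83 with voom weights and 0.26 with a replicate block. Cxcr4 went from -0.14 to 0.13 and 0.13 on both TPM scales, S1pr3 from -2.60 to 0.06 and Gng2 from -0.81 to 0.14 on log2(TPM + 1). Gna13 went from 0.02 to -0.25 with a length offset, -0.04 with voom weights, -0.02 with a replicate block and -0.16 without the pair. With 1 library left out, Ccr9 lay between -1.19 and 4.12, Cxcr4 between -1.06 and 0.75, Gnai2 between -0.17 and 1.49 and Gna13 between -0.12 and 0.16. For stage, Cxcr4 went from -0.07 to 0.06 and 0.06 on the TPM scales, S1pr1 from -1.99 to 0.69 with voom weights and 0.61 with a replicate block within genotype, and Gna13 from -0.03 to 0.11 with a length offset, 0.20 and 0.20 on the TPM scales and 0.01 with voom weights. With 1 library left out, Ccr7 lay between -0.01 and 0.75, Cxcr4 between -0.20 and 0.07, S1pr1 between -2.57 and 2.47 and Gna13 between -0.10 and 0.09.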
